A study of Homo sapiens with 42 samples.

Results

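The 6 untreated libraries of this K562 series, 3 of nuclear RNA (nuclear CTRL) and 3 of mRNA (mRNA CTRL), out of 42 libraries in all, were compared gene by gene. They were chosen by their labels alone, as the untreated columns of the nuclear and of the mRNA count table, joined on the gene identifier. K562 is an established cell line from a chronic myeloid leukaemia in blast crisis, carries the BCR-ABL1 kinase and has erythroid features. The study asked how imatinib, JTE-607 and osmotic shock with KCl change RNA processing in these cells, and the untreated libraries are the controls of both of its short-read datasets. Cells of both groups were K562 with no drug or salt treatment, and the study describes the 3 replicates as separate biological experiments on this 1 line. The mRNA libraries were made from RNA of whole cells by oligo-dT selection, so they hold cytoplasmic as well as nuclear poly(A) RNA. The nuclear libraries were made from RNA of nuclei obtained by fractionation, with ribosomal RNA depleted and no poly(A) selection named for them. The labels and the methods text name different depletion kits. Cell fraction and library method therefore changed together, and their parts in every difference given here cannot be told apart.

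Most human mRNAs are spliced and polyadenylated in the nucleus and then exported, so that at steady state the cytoplasm holds most copies of a stable mRNA. Several RNA classes carry no poly(A) tail: replication-dependent histone mRNAs end at a stem-loop, and the small nuclear, nucleolar and Cajal body RNAs (snRNAs, snoRNAs and scaRNAs) are trimmed or terminated without one. Many snoRNAs are cut out of introns of host genes, and long non-coding RNAs (lncRNAs) such as MALAT1 and NEAT1 stay at nuclear bodies. Mitochondrial mRNAs and rRNAs carry short tails and belong to neither the nucleus nor the cytosol.

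Counts were read pairs assigned to exons of each gene. Each group has 3 libraries, SD is over these, and SE comes from the edgeR fit. Totals ranged from 17855236 to 19031221 counts in mRNA and from 19803825 to 22588484 in nuclear RNA. Levels are given as CPM, counts scaled to a common library size after trimmed-mean (TMM) normalisation, a log2 difference is nuclear RNA minus mRNA, and a gene was called at an edgeR adjusted p under 0.05 and a log2 difference beyond 0.6. CPM are relative within a library, and in these bulk samples fewer cells with an RNA and less of it per cell or nucleus cannot be told apart. The erythroid factor GATA1 stood at 172, 179 and 216 CPM in the mRNA libraries and 174, 204 and 204 CPM in the nuclear libraries, in overlapping ranges. Of 13 markers of other cell types, 7 passed the filter on low counts, their summed level ran from 306 to 342 CPM in mRNA and from 246 to 307 CPM in nuclear RNA, and KRT8 and EPCAM made up most of it. RNA from outside the nucleus was present in the nuclear libraries, where the 13 mitochondrial mRNAs took 5.53% of the counts in the nuclear libraries.

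By fold, the composition of the 2 library types differed most in RNA classes outside ordinary mRNA. Replication-dependent histone genes took 0.157% ± 0.0384 (SD, n = 3) of the counts in mRNA and 1.16% ± 0.111 (SD, n = 3) in nuclear RNA. The snoRNA and scaRNA genes took 0.00532% ± 0.00127 of the mRNA counts and 0.271% ± 0.0304 of the nuclear counts (SD, n = 3 each), and misc_RNA genes, the annotation's class for 7SL, Y and vault RNAs and their copies, went from 0.00503% to 0.317%. These classes lay apart in the libraries of the 2 groups without overlap. lncRNA genes held 1.43% ± 0.0183 (SD, n = 3) of the counts in mRNA and 3.41% ± 0.174 (SD, n = 3) in nuclear RNA.

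In the other direction, the 2 mitochondrial rRNA genes took 1.67% ± 0.266 (SD, n = 3) of the counts in mRNA and 0.00977% ± 0.000903 (SD, n = 3) in nuclear RNA, the largest fold among the 9 classes compared. Mitochondrial protein-coding genes held 8.9% ± 0.354 (SD, n = 3) of the counts in mRNA and 5.53% ± 0.638 (SD, n = 3) in nuclear RNA. Processed pseudogenes, intronless copies of mRNAs inserted elsewhere in the genome, held 1.19% ± 0.0246 (SD, n = 3) of the counts in mRNA and 0.31% ± 0.0191 (SD, n = 3) in nuclear RNA. Protein-coding genes of the nuclear genome took 86.1% of mRNA counts and 89.3% of nuclear counts, a difference of 3.24 percentage points that turned to -1.69 points once mitochondrial genes were left out of the total. For each of the 9 classes the 3 nuclear libraries lay on one side of the 3 mRNA libraries, which gives an exact 2-sided permutation p of 0.1, the smallest that 3 against 3 libraries allow.

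**Figure D1:**
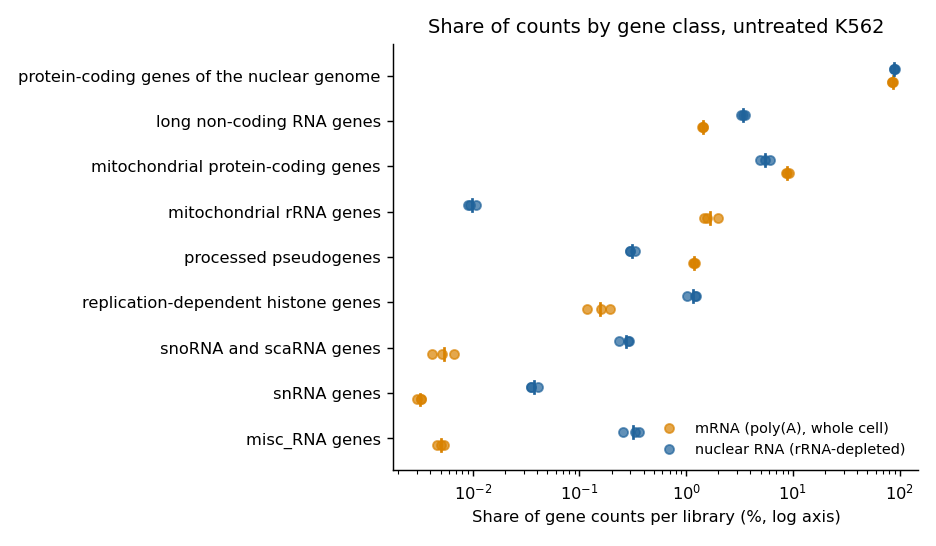
Share of gene counts (percent, log axis) taken by 9 gene classes in each untreated library, with mRNA in orange and nuclear RNA in blue; dots are libraries (n = 3 per group) and ticks are group means. The groups do not overlap in any class, and mitochondrial rRNA genes fall from 1.67% in mRNA to 0.00977% in nuclear RNA.

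Over single genes, 4271 of 17905 tested genes (23.9%) were higher in nuclear RNA and 3763 (21.0%) were higher in mRNA. Beyond a log2 difference of 2 the counts were 1882 (10.5%) and 1154 (6.45%). The split between the 2 directions depends on the scaling: 53.2% of the calls were higher in nuclear RNA under TMM, against 68.3% under upper-quartile scaling and 78% when only library totals were used, which moved the median log2 difference of all genes from 0.02 to 0.23 and 0.41. Low-abundance genes held many of the calls: of the 9050 genes with a mean of at least 10 CPM, 30.8% were called, against 44.9% of all genes.

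The gene classes split in different ways. Among 12076.0 protein-coding genes, 1519.0 (12.6%) were higher in nuclear RNA and 2380.0 (19.7%) in mRNA, with a median log2 difference of -0.09 that turned positive under library totals, upper-quartile scaling and TMM computed from protein-coding genes. Among 2625.0 lncRNA genes, 1487.0 (56.6%) were higher in nuclear RNA and 110.0 (4.19%) in mRNA, with a median of 0.99. Among 1791.0 processed pseudogenes, 1082.0 (60.4%) were higher in mRNA and 523.0 (29.2%) in nuclear RNA, with a median of -2.89. They thus made up 967 of the 1154 genes higher in mRNA by more than 2, while 707 of the 1882 genes higher in nuclear RNA by more than 2 were lncRNA genes.

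**Figure D2:**
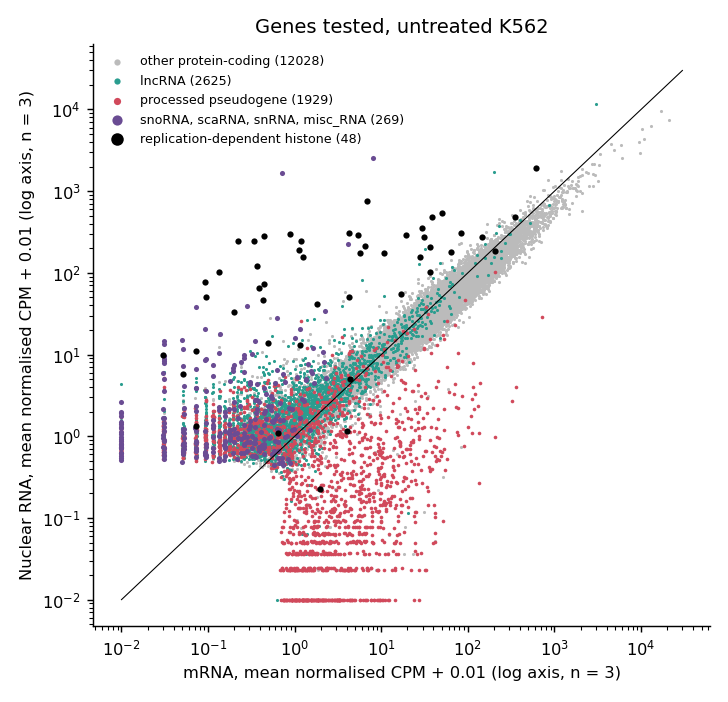
Mean normalised CPM plus 0.01 in nuclear RNA (vertical, log axis, n = 3) against mRNA (horizontal, log axis, n = 3) for tested genes of the classes named in the legend; each point is a gene, coloured by class, and the line marks equal levels. Most histone genes and small RNAs lie above the line and most processed pseudogenes fall below it, down to genes with no counts in nuclear RNA.

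Replication-dependent histone mRNAs, which are made in S phase and end at a stem-loop in place of a poly(A) tail, had the largest median difference of the protein-coding lists examined. Of 64 annotated genes, 48 were tested, 42 were higher in nuclear RNA, 2 were higher in mRNA and 4 were not called. Over all protein-coding genes tested, 12.6% and 19.7% were called in these 2 directions. The median log2 difference was 4.70 beside 0.02 over all genes tested. Some members passed the filter on low counts only through the nuclear libraries. Among them, H4C2, H2AC4 and H3C7 had 10, 6 and 4 counts over the mRNA libraries. The consensus of the histone 3′ stem-loop, searched on the sense strand, was present within 100 bases after the stop codon of 61 of the 64 genes. It was found in the same window of 2 of 12025 other tested protein-coding genes (0.0166%), namely H1-6 and H2AX. These 5 are printed because genes with large differences (H4C2, H2AC4, H3C7) and with small ones (H1-2, H2BC12) carry nearly the same element, with the matched letters in capitals (GRCh38, read 5′ to 3′ along the transcript).
H4C2: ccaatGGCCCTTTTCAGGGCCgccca
H2AC4: gcaaaGGCTCTTTTCAGAGCCaccta
H3C7: ccaaaGGCTCTTTTCAGAGCCaccaa
H1-2: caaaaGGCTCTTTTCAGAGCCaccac
H2BC12: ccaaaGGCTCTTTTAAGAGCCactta
The printed stretches lie at chr6:26026896-26026921, minus strand for H4C2, at chr6:26033093-26033118, minus strand for H2AC4, at chr6:26250140-26250165, minus strand for H3C7, at chr6:26055739-26055764, minus strand for H1-2 and at chr6:27146361-27146386, minus strand for H2BC12.

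H4C2, a gene for the core histone H4, stood at 0.385, 0.242 and 0 CPM in the mRNA libraries and at 202, 258 and 267 CPM in the nuclear libraries. Its log2 difference was 10.15 ± 0.33 (SE), edgeR adjusted p = 6.2e-10. H2AC4, a core histone H2A gene, went from 0.128, 0.182 and 0.0621 CPM to 94.4, 107 and 107 CPM, a log2 difference of 9.62 ± 0.23 (SE), edgeR adjusted p = 3.8e-12. H3C7, a core histone H3 gene, went from 0.192, 0.0606 and 0 CPM to 47.8, 53.8 and 51.7 CPM (log2 difference 9.16 ± 0.31 SE, edgeR adjusted p = 5.0e-11). In these 3 genes the mRNA libraries held almost no counts and the groups were far apart, and H2AC12, H2AC20 and H4C3 were of the same kind, with log2 differences of 9.50, 9.30 and 8.42.

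A few histone genes were well represented in poly(A)-selected RNA. The linker histone gene H1-2 took the most counts of the group, at 531, 802 and 479 CPM in mRNA and 1738, 2119 and 1844 CPM in nuclear RNA, and its log2 difference was 1.65 ± 0.18 (SE), edgeR adjusted p = 2.6e-05. H2BC12, a core histone H2B gene, stood at 399, 389 and 249.9 CPM in mRNA and 437, 509 and 512 CPM in nuclear RNA and was not called (log2 difference 0.49 ± 0.16 SE, edgeR adjusted p = 0.0203). The other linker genes were not like H1-2: H1-4 held 6.54, 11.8 and 2.17 CPM in mRNA and 699, 782 and 821 CPM in nuclear RNA. The 2 members higher in mRNA were H4C14 and H4C15, a near-identical pair on chromosome 1 whose reads can be split or lost between the copies and whose exons overlap other genes, with means of 1.93 ± 0.976 against 0.219 ± 0.0549 CPM (SD, n = 3) for H4C15.

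The difference followed how far the annotated gene ran past the stem-loop. In 27.0 tested genes whose annotation ended before it or within 100 bases after it, 26.0 were higher in nuclear RNA, 0.0 in mRNA, and the median log2 difference was 7.38 (range 0.49 to 10.15). In the 20.0 genes annotated more than 100 bases beyond it, 16.0 were higher in nuclear RNA and 2.0 in mRNA, with a median of 2.52 (range -3.12 to 6.22). The split at 100 bases was chosen after the values were seen and was not tested. By family the median was 7.11 over 4 H1 genes, 6.29 over 12 H2A genes, 3.56 over 15 H2B genes, 7.36 over 6 H3 genes and 4.85 over 11 H4 genes. Replication-independent histone genes, whose mRNAs are polyadenylated, did not share the pattern: 0 of 6 tested were higher in nuclear RNA and 3 were higher in mRNA. These were H2AZ1 with a log2 difference of -0.91 ± 0.10 (SE), edgeR adjusted p = 4.9e-06, H3-3B (-0.80) and H2AZ2 (-0.61). All 3 calls were lost with library totals, and those of H3-3B and H2AZ2 under upper-quartile scaling too. H2AX, 1 of the 2 other genes with the stem-loop letters, was not called (log2 difference 0.38 ± 0.16 SE, edgeR adjusted p = 0.0518).

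**Figure D3:**
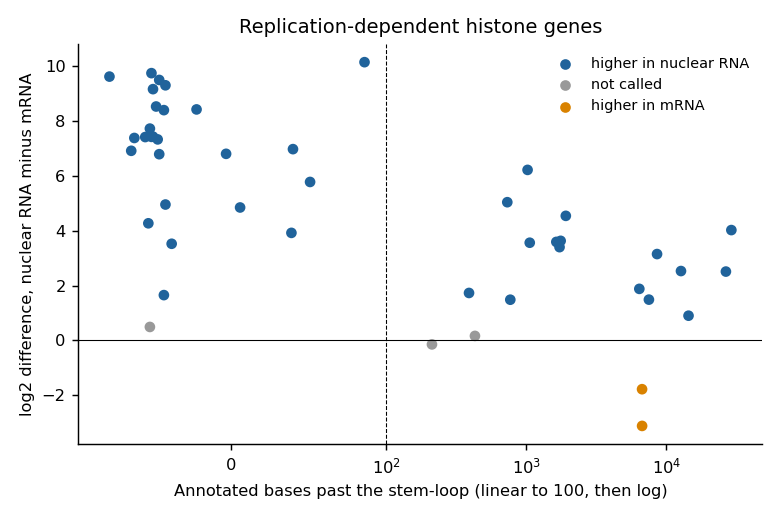
The log2 difference, nuclear RNA minus mRNA, of 47 tested replication-dependent histone genes with a stem-loop match, against the annotated bases past the stem-loop (linear to 100, then log; negative where the annotation ends before it); colours give the call and the dashed line marks 100 bases. The 27.0 genes left of the line have a median of 7.38 and the 20.0 to its right a median of 2.52.

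Small RNAs without a poly(A) tail were called in 1 direction. Of 44 tested box C/D snoRNAs, which guide 2′-O-methylation of rRNA, 40 were higher in nuclear RNA, and of 48 tested box H/ACA snoRNAs, which guide pseudouridylation, 45 were, with medians of 2.47 and 2.73. All 9 tested scaRNAs, which guide modification of snRNAs in Cajal bodies, and all 14 tested spliceosomal snRNAs were higher in nuclear RNA, with medians of 6.31 and 5.94 (the latter 5.21 with the 3 genes that had no count in mRNA set at the bound that 3 counts give). No member of these 4 lists was higher in mRNA. Over all genes tested, 23.9% were higher in nuclear RNA and 21.0% in mRNA. Many tested members lay inside an intron of a gene with a mean of at least 10 CPM. These were 36 box C/D, 47 box H/ACA, 9 scaRNA and 2 snRNA genes. All genes in such introns that are not protein-coding had a median of 2.15, near those of the 2 snoRNA lists. Most members stayed under the filter on low counts in both groups (270 of 314 box C/D, 165 of 213 box H/ACA, 16 of 25 scaRNAs and 11 of 25 snRNAs), so that these counts describe the members detected through the nuclear libraries.

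U3, the snoRNA of the small-subunit processome, took the most counts of the snoRNAs, and its gene SNORD3A held 0.705, 0.606 and 0.808 CPM in mRNA and 1901, 1768 and 1287 CPM in nuclear RNA (log2 difference 11.18 ± 0.23 SE, edgeR adjusted p = 2.8e-12). SNORA73B, in an intron of SNHG3, held 4.94, 3.21 and 4.29 CPM in mRNA and 211, 248 and 218 CPM in nuclear RNA (log2 difference 5.77 ± 0.17 SE, edgeR adjusted p = 1.8e-11). The scaRNA gene SCARNA7 in KPNA4 held 0.321, 0.363 and 0.124 CPM in mRNA and 30.8, 42.6 and 43 CPM in nuclear RNA. The libraries of the 2 groups did not overlap in any of the 3. RNU6-2, a U6 snRNA gene, had 3 counts over the 3 mRNA libraries and 2837 over the nuclear ones, a ratio of 618-fold (95% counting interval 211 to 2999). RN7SL2, 1 of the genes of the 7SL RNA of the signal recognition particle, which works in the cytoplasm and is not polyadenylated, stood at 8.46, 10.1 and 5.78 CPM in mRNA and 2041, 2723 and 2825 CPM in nuclear RNA (log2 difference 8.28 ± 0.24 SE, edgeR adjusted p = 5.7e-10). Of 13 genes of RNA polymerase III transcripts and other non-coding ribonucleoprotein RNAs, 4 were tested and 4 were higher in nuclear RNA, with RNY1 and VTRNA1-3, of the Y and vault RNAs, at 5.89 and 9.13 CPM in nuclear RNA. RN7SK, RMRP, RPPH1 and RN7SL1 are listed at 0 counts in all 6 libraries, and nothing can be said of their levels from these files.

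An intronic snoRNA can be read beside its host. The annotated letters of SNORD17 (chr20:17962710-17962946, minus strand, within SNX5) are printed because it took the most counts of the box C/D genes after U3, with box C (ATGATGA or GTGATGA) and box D (CTGA) in capitals (GRCh38).
SNORD17: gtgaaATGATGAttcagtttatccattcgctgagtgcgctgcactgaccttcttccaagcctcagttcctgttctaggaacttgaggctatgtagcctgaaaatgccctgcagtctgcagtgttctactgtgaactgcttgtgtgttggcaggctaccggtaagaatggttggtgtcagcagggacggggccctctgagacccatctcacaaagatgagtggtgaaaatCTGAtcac
Both boxes, box C within the first 25 and box D within the last 25 bases, were found on the sense strand in 25 of 44 tested box C/D genes and in 0 of 48 box H/ACA genes. SNORD17 stood at 3.21, 2.66 and 0.746 CPM in mRNA and 39.1, 37 and 26.2 CPM in nuclear RNA (log2 difference 3.95 ± 0.38 SE, edgeR adjusted p = 4.5e-05) and the exons of SNX5, an endosomal sorting nexin, differed by -0.26 ± 0.13 (SE, edgeR adjusted p = 0.119). Reads from unspliced host RNA over an intronic snoRNA count for the snoRNA, so mature snoRNA and host intron cannot be told apart in these counts.

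lncRNAs known to reside in the nucleus were called about as often as other lncRNAs. Of 10 tested genes on a list of 12, 6 were higher in nuclear RNA and 1 in mRNA, beside 56.6% and 4.19% of all lncRNA genes, with a median log2 difference of 1.37 beside 0.99 over all lncRNA genes tested. NEAT1, the scaffold of paraspeckles, stood at 241, 243 and 114 CPM in mRNA and 1704, 1735 and 1719 CPM in nuclear RNA (log2 difference 3.11 ± 0.29 SE, edgeR adjusted p = 7.3e-05). MALAT1, of nuclear speckles, had the highest mean CPM of any gene over the 3 nuclear libraries, though MT-CO1 stood above it in nuclear CTRL 3, at 13563, 12264 and 8823 CPM against 3091, 3094 and 2957 CPM in mRNA (log2 difference 1.92 ± 0.14 SE, edgeR adjusted p = 2.4e-07). KCNQ1OT1, which silences an imprinted domain in cis, went from 39.2, 29.9 and 37.8 to 199, 192 and 214 CPM (log2 difference 2.50 ± 0.13 SE, edgeR adjusted p = 3.8e-09). MIAT, FIRRE and FTX were also higher, by 2.05, 1.59 and 1.16 on the log2 scale. TUG1 went the other way, at 169, 183 and 185 CPM in mRNA and 122, 90.7 and 93.1 CPM in nuclear RNA (log2 difference -0.81 ± 0.13 SE, edgeR adjusted p = 1.3e-04), a call lost with library totals, and PVT1 (0.20), MEG3 (0.34) and JPX (0.77) were not called. Each of the 7 called genes shares annotated exon bases with another gene, and read pairs that overlap 2 genes are left unassigned.

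Genes listed as cytoplasmic lncRNAs were split. Of 7 tested, 2 were higher in nuclear RNA, 1 was higher in mRNA and the median was 0.17. Over all lncRNA genes tested, 56.6% and 4.19% were called in these 2 directions. NORAD, which binds PUMILIO proteins in the cytoplasm, stood at 542, 504 and 512 CPM in mRNA and 432, 398 and 388 CPM in nuclear RNA, a difference under the fold threshold (log2 difference -0.36 ± 0.10 SE, edgeR adjusted p = 0.00646). CYTOR and LINC-PINT were the 2 higher in nuclear RNA (0.87 and 1.82) and OIP5-AS1 the one higher in mRNA (-0.68). Membership of this list was not checked in K562, and the placing of LINC-PINT on it is uncertain. Among lncRNA genes that share no exon base with another gene and reach 10 CPM, those with the largest differences towards nuclear RNA included LINC01203 (log2 difference 1.70 ± 0.21 SE, edgeR adjusted p = 1.5e-05), LINC01311 (1.51) and GSEC (1.29). Those with the largest differences towards mRNA were OTUD6B-AS1 (log2 difference -1.55 ± 0.22 SE, edgeR adjusted p = 1.4e-04), BAIAP2-DT (-0.96) and LINC02404 (-0.85), and the last 2 and OIP5-AS1 lost their call with library totals. The median over all lncRNA genes tested was 0.99, well under the medians of the small RNA lists and of the histone genes.

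Of 22 snoRNA host genes, 11 were higher in nuclear RNA and 1 in mRNA (median 0.60), with SNHG3 at 0.69 ± 0.14 (SE), edgeR adjusted p = 9.8e-04 (not called without mRNA CTRL 3, at 0.56, or nuclear CTRL 3, at 0.59), SNHG6 at -1.04 and GAS5 at -0.02 (not called). Of 34 tested microRNA host genes, 21 and 1 were called in the 2 directions (median 0.99), and MIR17HG, the primary transcript of the miR-17-92 cluster, differed by 0.86 ± 0.14 (SE), edgeR adjusted p = 2.0e-04. Genes named as antisense transcripts gave 326 and 26 of 579 (median 0.93), divergent transcripts 80 and 8 of 209 (median 0.50), and LINC genes 99 and 13 of 245 (median 0.54), beside 56.6% and 4.19% of all lncRNA genes. The share higher in nuclear RNA did not exceed that of all lncRNA genes in any of these last 3 groups. All 5 medians kept their sign under the 4 other scalings run. Strand was not named among the counting options in the sources, so for antisense genes reads of the 2 strands cannot be told apart.

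Position within another gene went with the direction of the difference. Of 17905 tested genes, 1763 (9.85%) lay wholly inside an intron of a gene with a mean of at least 10 CPM, and these made up 919 of the 1882 genes (48.8%) higher in nuclear RNA by more than 2. Among genes that are not protein-coding, 1187 of 1650 embedded genes were higher in nuclear RNA and 198 in mRNA (median log2 difference 2.15), against 1565 and 1185 of 4179 genes outside such introns (median 0.30). For lncRNA genes the medians were 2.26 over 495 embedded and 0.82 over 2130 other genes. The 113 embedded protein-coding genes had a median of 0.84. The hosts themselves had a median of -0.23, and 1467 of the 1763 embedded genes had a higher log2 difference than their host. The median was 1.89 for 768 non-coding genes on the strand of the host and 2.38 for 882 on the opposite strand. Reads of unspliced host RNA fall on such genes, and their part in these counts was not tested. Of the tested lncRNA genes, 183 had at most 3 counts over the mRNA libraries and 7 had at most 3 over the nuclear ones. The counts and medians by position can thus partly describe genes that passed the filter on low counts through 1 group.

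Processed pseudogenes gave most of the large differences towards mRNA. For 1364 of the 1929 tested (the transcribed processed class included) the gene name gives a tested parent gene. Of the 887 that lay outside introns of expressed genes, 749 were higher in mRNA and 55 in nuclear RNA, with a median log2 difference of -5.14. Their 472 parent genes had a median of -0.58, and 676 of the 887 pseudogenes lay more than 2 below their own parent. Summed over these pseudogenes, the libraries held 7704 to 8416 CPM in mRNA and 685 to 725 CPM in nuclear RNA. Of the 477 inside an intron of an expressed gene, 274 were higher in nuclear RNA and 136 in mRNA (median 1.55). With the transcribed class left aside, 8318 of 10109 processed pseudogenes stayed under the filter on low counts. Of the 1791 tested, 425 had at most 3 counts over the nuclear libraries and 175 over the mRNA libraries. These counts and medians thus partly describe members detected through 1 group.

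The pseudogene with the most counts was EEF1A1P5 (chr9:133019486-133020874, plus strand), a copy of the translation elongation factor gene EEF1A1. It stood at 710.2, 709 and 707 CPM in mRNA and at 27.5, 30.6 and 28.6 CPM in nuclear RNA (log2 difference -4.62 ± 0.11 SE, edgeR adjusted p = 3.9e-12), while EEF1A1 itself stood at 11111, 10702 and 10828 CPM in mRNA and 4177, 4443 and 4260.1 CPM in nuclear RNA (log2 difference -1.34 ± 0.09 SE, edgeR adjusted p = 3.7e-08). NPM1P27 fell from 158, 132 and 119 CPM to 5.71, 3.91 and 3.86 CPM (log2 difference -4.92 ± 0.18 SE, edgeR adjusted p = 1.9e-10), and its parent NPM1, for the nucleolar protein nucleophosmin, differed by -1.28. RPL4P4 and RPLP0P6, copies of the ribosomal protein genes RPL4 and RPLP0, differed by -5.82 and -3.86 beside -0.78 and -0.53 for the parents. In all 4 pairs the copy held a small part of the counts of its parent, and the copy's counts were lower in nuclear RNA by a far larger factor than those of the parent.

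The stretches below show how alike copy and parent are. Each is 60 bases of the parent's spliced transcript, 30 on each side of a splice junction in the coding sequence (exons 3 and 4 of NPM1, exons 2 and 3 of RPL4, canonical GENCODE transcripts), with the same stretch of the pseudogene, and capitals mark bases that differ (GRCh38).
NPM1: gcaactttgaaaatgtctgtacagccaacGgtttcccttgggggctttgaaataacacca
NPM1P27: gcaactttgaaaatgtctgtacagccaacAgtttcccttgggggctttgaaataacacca
RPL4: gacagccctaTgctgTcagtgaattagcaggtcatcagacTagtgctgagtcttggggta
RPL4P4: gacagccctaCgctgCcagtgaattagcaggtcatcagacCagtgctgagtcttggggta
The NPM1P27 stretch lies at chr5:93683431-93683490 and the RPL4P4 stretch at chr3:185418574-185418633, both on the minus strand and both with no intron at the junction, where the parents have introns of 281 and 193 bases. Over the whole alignment NPM1P27 is 98.2% and RPL4P4 98.4% identical to the parent transcript.

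Likeness to the parent went with the direction. Outside introns, 5 of 47 pseudogenes under 85% identity were higher in mRNA and 19 were higher in nuclear RNA (median log2 difference 0.67). From 85% to 90% identity, 24 of 66 were higher in mRNA (median -0.16), and from 90% to 95%, 281 of 322 were (median -5.79). From 98% upwards the count was 132 of 135 (median -4.59) and 0 were higher in nuclear RNA. Inside introns of expressed genes the median ran from 3.50 over 120 pseudogenes under 85% to -3.77 over 34 at 98% and above. The study's methods keep reads with 1 alignment in both datasets, and reads of a parent mRNA placed on a copy cannot be told from transcription of the copy in gene counts.

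**Figure D4:**
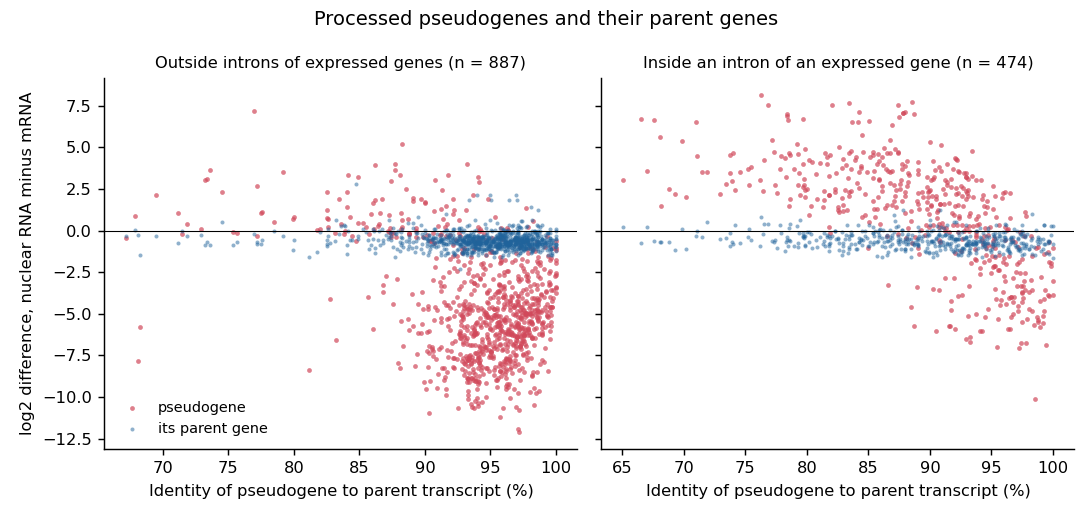
The log2 difference, nuclear RNA minus mRNA, of processed pseudogenes (red) and of their parent genes (blue) against the identity of the pseudogene to the parent transcript in percent, for pseudogenes outside (left) and inside (right) introns of expressed genes; each dot is 1 gene. Outside introns the median of the pseudogenes is 0.67 under 85% identity, -5.79 from 90% to 95%, -5.73 from 95% to 98% and -4.59 from 98% upwards, while the parents have a median of -0.58.

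The 6 protein-coding genes with the largest differences towards mRNA, among those with at least 10 CPM and no exon shared with another gene, were HMGB1P1, H2BC12L, NACA2, H3-5, SETSIP and ZC3H11B. HMGB1P1, a copy of the chromatin protein gene HMGB1, stood at 22.8, 23.9 and 22.9 CPM in mRNA and had 2 counts over the 3 nuclear libraries, a ratio of 857-fold (95% counting interval 237 to 7083) towards mRNA. For NACA2, a copy of the nascent polypeptide-associated complex gene NACA, the ratio was 439.8-fold (95% counting interval 121 to 3640.4). SETSIP, a copy of the histone chaperone gene SET, fell from 33.9, 29.5 and 29.2 to 0.0782, 0.12 and 0.13 CPM (log2 difference -8.07 ± 0.24 SE, edgeR adjusted p = 2.2e-11). The genes they resemble, named after the values were seen, differed by -1.25 (HMGB1), -1.22 (NACA) and -0.78 (SET).

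Most mRNAs of the mitochondrial genome were lower in nuclear RNA. Of 13 mitochondrial mRNAs, 10 were higher in mRNA, 0 in nuclear RNA and the median log2 difference was -0.98, -0.59 when only library totals were used. MT-ND4, a subunit of complex I which took the most counts of any gene in the mRNA libraries, stood at 22137, 20438 and 20093 CPM in mRNA and 6702, 8439.6 and 7093 CPM in nuclear RNA (log2 difference -1.49 ± 0.10 SE, edgeR adjusted p = 8.4e-08). MT-CO1, of cytochrome c oxidase, stood at 19066, 16226 and 15861 CPM in mRNA and 8445, 10679 and 9645 CPM in nuclear RNA (log2 difference -0.83 ± 0.11 SE, edgeR adjusted p = 3.3e-05), a call lost with library totals. MT-ND5 overlapped between the groups, at 5291, 4480.1 and 3774 CPM in mRNA and 2718, 4248 and 4472 CPM in nuclear RNA (log2 difference -0.24 ± 0.19 SE, edgeR adjusted p = 0.298).

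The mitochondrial rRNAs stood far below that range. MT-RNR2, the large-subunit rRNA, held 15466, 14234 and 18633 CPM in mRNA and 46.5, 52.7 and 45.6 CPM in nuclear RNA (log2 difference -8.38 ± 0.15 SE, edgeR adjusted p = 1.6e-12), and MT-RNR1, the small-subunit rRNA, held 3035, 2611 and 3206 CPM in mRNA and 34, 43.2 and 35.1 CPM in nuclear RNA (log2 difference -6.30 ± 0.15 SE, edgeR adjusted p = 3.8e-12). Per kilobase of exon, MT-RNR2 and MT-ND4 stood at 10334 and 15159 CPM in mRNA and at 30.9 and 5378 CPM in nuclear RNA. Only the nuclear libraries were depleted of rRNA, and depletion and cell fraction cannot be told apart for these 2 genes. Of 18 tested mitochondrial tRNA genes, 3 were higher in nuclear RNA and 6 in mRNA (median -0.38, 0.02 with library totals), with MT-TF at 6.77 and MT-TR at -3.30. These calls are 16.7% and 33.3% of the 18, beside 23.9% and 21.0% of all genes tested.

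Ordinary mRNAs differed modestly. Of 79 cytosolic ribosomal protein genes, 25 were higher in mRNA and 2 in nuclear RNA (median log2 difference -0.44, -0.05 with library totals alone), beside 19.7% and 12.6% of all protein-coding genes. RPL7 stood at 1539, 1422 and 1404 CPM in mRNA and 574, 518 and 471 CPM in nuclear RNA (log2 difference -1.48 ± 0.10 SE, edgeR adjusted p = 9.0e-08). RPS10, the member with the largest difference towards nuclear RNA, at 5.83, 3.69 and 4.35 CPM in mRNA and 19, 22.5 and 20 CPM in nuclear RNA, shares exon bases with another gene, as do EIF4A1 (1.85), a translation helicase, and NDUFA13 (2.48), of complex I. Of 24 long-lived housekeeping mRNAs, 10 were higher in mRNA and 1 in nuclear RNA (median -0.42), and of 29 genes of the endoplasmic reticulum and secretory pathway, whose mRNAs are translated at the outer nuclear membrane too, 9 and 0 (median -0.43). The chaperone gene HSP90B1 differed by -0.98 ± 0.15 (SE), edgeR adjusted p = 2.1e-04, a call lost with library totals, and the translocon gene TRAM1 by -1.20. With library totals alone these 2 medians shrank to -0.03 and -0.04.

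Genes for SR splicing factors and CLK kinases, many of which keep part of their RNA in the nucleus through detained introns, were in part lower in nuclear exon counts. Of 17 tested, 10 were higher in mRNA, 1 was higher in nuclear RNA and 6 were not called, beside 19.7% and 12.6% of all protein-coding genes. The median was -0.67, and -0.29 with library totals, under which SRSF1, SRSF5 and SRSF7 lost their calls. SRSF3 stood at 754, 572 and 898 CPM in mRNA and 348, 356 and 375 CPM in nuclear RNA (log2 difference -1.04 ± 0.14 SE, edgeR adjusted p = 4.8e-05), and SRSF2 at 385, 263 and 477 CPM in mRNA and 186, 175 and 173 CPM in nuclear RNA (log2 difference -1.08 ± 0.18 SE, edgeR adjusted p = 4.5e-04). The kinase gene CLK3 was the one higher in nuclear RNA (log2 difference 0.71 ± 0.12 SE, edgeR adjusted p = 2.7e-04), CLK1 was lower (-0.68, not called without nuclear CTRL 3, at -0.60, or with library totals) and CLK4 was not called (0.06). On the wider list of 14 genes with detained introns, 6 were higher in mRNA and 1, GABBR1, in nuclear RNA (log2 difference 0.97 ± 0.14 SE, edgeR adjusted p = 6.2e-05), and the median of -0.24 turned to 0.14 with library totals. These counts cover the exons of all annotated transcripts of a gene. Bases in an intron of 1 transcript and in an exon of another are counted, so reads of a retained intron can be part of them.

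Of 20 globin and erythroid genes, 1 was higher in nuclear RNA and 2 in mRNA (median 0.01). The fetal globin gene HBG2 stood at 1445, 1883 and 983 CPM in mRNA and 1128, 1513 and 1546 CPM in nuclear RNA, in overlapping ranges, and the embryonic globin gene HBZ at 89.6, 107 and 39.8 CPM in mRNA and 149, 216 and 313 CPM in nuclear RNA (log2 difference 1.52 ± 0.46 SE, edgeR adjusted p = 0.0359), a call lost without mRNA CTRL 1 (log2 difference 1.59) or nuclear CTRL 3 (1.27), with the replicate number as a block (1.54), without the filter on low counts (1.56) and when tested against a difference of 0.6. Of 34 short-lived mRNAs, 2 and 2 were called in the 2 directions (median -0.08), of 76 nuclear-encoded respiratory chain genes 7 and 12 (median -0.15), and of 212 zinc finger genes on chromosome 19, 20 and 26 (median -0.11). These 3 medians are smaller than the shift between scalings and turned positive with library totals (0.31, 0.24 and 0.28). Over all protein-coding genes tested, 12.6% were higher in nuclear RNA and 19.7% in mRNA. The erythroid, short-lived, respiratory chain and zinc finger lists all lay below both shares.

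**Figure D5:**
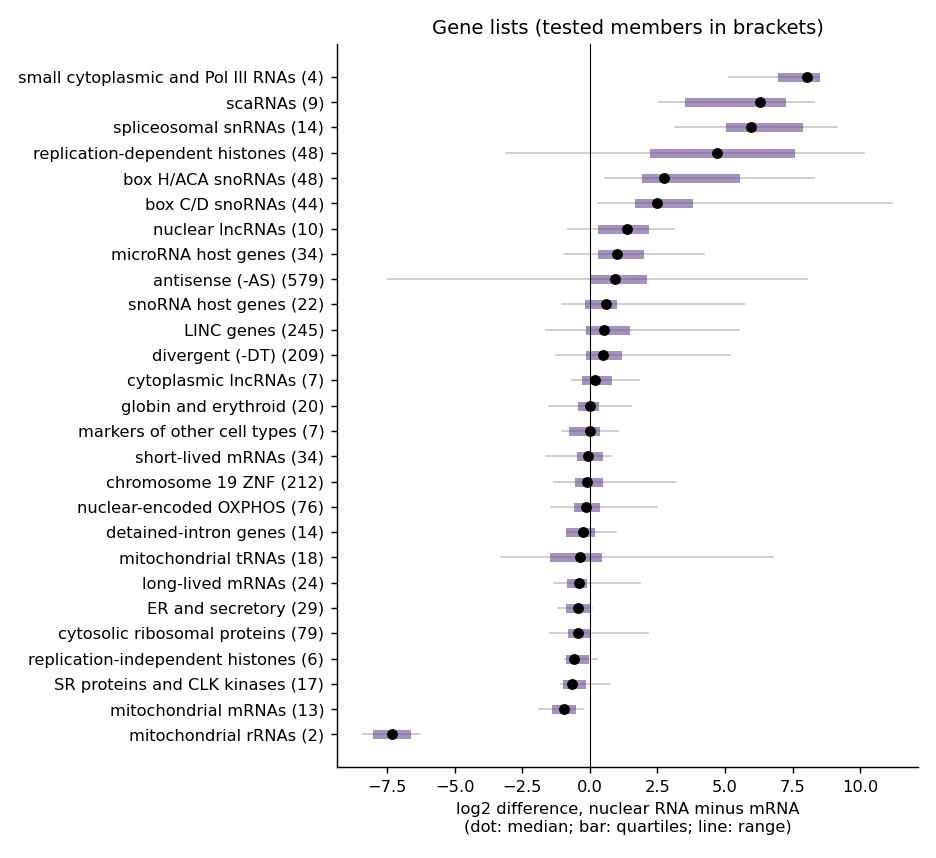
The log2 difference, nuclear RNA minus mRNA, of 27 gene lists in untreated K562; dots are medians, bars quartiles and lines the range over tested members, whose number is in brackets. Small RNAs and replication-dependent histone genes sit at the top, with medians from 2.47 to 8.03, most mRNA groups lie within 1 of zero and the 2 mitochondrial rRNAs lie at -7.34.

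Among protein-coding genes the difference varied with the longest gap between exons and with level. This gap was taken after merging the exons of all annotated transcripts of a gene. It can therefore be shorter than the longest intron, and a gene with no gap can still have introns. The median log2 difference was 0.24 over 826 genes whose longest gap is at most 1000 bases and 0.12 over 1540 genes with 1000 to 3000 bases. It was -0.12 over 3832 genes with 3000 to 10000, -0.23 over 3395 with 10000 to 30000 and -0.19 over the 2160 genes beyond 30000 bases. Genes with no gap, 323 in number, had a median of 0.05. The aligner was set to allow introns of up to 10000 bases. Of 5555 genes with a gap over 10000 bases, 22.8% were higher in mRNA and 9.2% in nuclear RNA, against 17.1% and 15.5% of 6521 other genes. By level, 35% of 1175 genes with a mean of 1 to 3 CPM were higher in nuclear RNA and 7.4% in mRNA, against 2.89% and 29.2% of 2284 genes over 100 CPM. With library totals all 6 medians by gap were positive, from 0.16 to 0.62, in the same order.

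The same comparison was made in libraries that share no sample with the untreated ones. After 1 h of 1 μM imatinib, the BCR-ABL1 inhibitor, 3599 genes (20.0% of 18000 tested) were higher in nuclear RNA and 2875 (16.0%) in mRNA. Of the genes called in untreated cells, 3076 (72%) of those higher in nuclear RNA and 2676 (71.1%) of those higher in mRNA were called the same way there, which is 85.5% and 93.1% of the calls after imatinib, and 0 were called the opposite way. After 1 h of 5 μM JTE-607, an inhibitor of the cleavage endonuclease CPSF73, 3214 (75.3%) and 2888 (76.7%) were called the same way, which is 66.8% and 91.9% of the calls after JTE-607 (26.1% and 17.1% of 18427 genes being called in the 2 directions), and 4 the opposite way. The median log2 difference of the replication-dependent histone genes was 4.75 after imatinib and 4.78 after JTE-607, beside 4.70 in untreated cells. For processed pseudogenes outside introns it was -5.05 and -4.96 beside -5.14, and for mitochondrial mRNAs -0.97 and -1.05 beside -0.98. Other medians moved more: the mitochondrial rRNAs stood at -6.20 and -5.72 beside -7.34, box C/D snoRNAs at 1.88 and 3.49 beside 2.47, the RNA polymerase III and ribonucleoprotein RNAs at 9.32 and 9.64 beside 8.03, and snoRNA host genes at 0.30 and 0.35 beside 0.60. Whether these medians differ between the treatments was not tested. Fraction and library method changed together in these libraries too.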

How the data were processed

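Per the labels and the study's methods, the authors made the deposited counts (read pairs assigned to each gene) with STAR (unique alignments, introns up to 10000 bases) on hg38 and featureCounts over exons. Genes were named from GENCODE 44, which held 57532 of 58243 gene IDs. Nuclear and mRNA columns were joined on the gene ID, and library totals are given in the report. Untreated libraries were compared with the quasi-likelihood test of edgeR 4.0.16 in R 4.3.3 (TMM, filterByExpr, robust fit), with 17905 genes tested. Calls needed an adjusted p (Benjamini-Hochberg) below 0.05 together with a log2 difference beyond 0.6 in size, the thresholds named in the study's methods. As the 3 replicates per group are separate experiments on 1 line, p-values measure the spread between them. CPM are counts divided by effective library size. Class shares were compared by exact 2-sided permutation. Where a group had 1 to 3 counts, a ratio with a 95% counting interval is given, which covers counting error only. Among the tested genes, 42.4% share exon bases with another gene. Pseudogenes were matched to parents by symbol and aligned with BLAST+ 2.17.0. DESeq2 1.42.0, other scalings and filters and left-out libraries were alternatives, and scripts were tested on simulated data.

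The gene lists and members were chosen with earlier results of these data known. Genes named are the 6 protein-coding and the 6 lncRNA genes with the largest differences in each direction (mean of at least 10 CPM in the higher group, no overlap between groups, no shared exon), and for each list the 3 tested members with the highest mean CPM and the called member with the largest difference in each direction. Lists of up to 14 tested members may be described member by member. Pseudogene pairs, hosts of snoRNAs and the genes that HMGB1P1, NACA2 and SETSIP resemble were chosen after their values were seen.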

Additional observations from a re-analysis of the deposited data

How the results depend on the processing

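Under DESeq2 size factors, the DESeq2 Wald test, TMM from protein-coding genes and upper-quartile scaling, thinning to the shallowest library and without the genes over 1% of the counts, the total of 8034 calls and the 3036 beyond a log2 difference of 2 stayed within 1.5 times. With library totals alone 6799 genes were higher in nuclear RNA and 1914 in mRNA. Testing against a difference of 0.6 gave 3035 and 2366. Restricting the test to genes with a mean of at least 10 CPM left 2367 calls (1144 and 1223) and 212 beyond 2 (77 and 135), with fewer genes tested. Without the filter on low counts 7236 genes were higher in nuclear RNA, and 6349 differed beyond 2 (4403 and 1946). The fit over all 42 libraries gave 4605 beyond 2, 3085 of them higher in nuclear RNA. Without a fold threshold 5092 and 5390 genes passed. Leaving out each library in turn gave 7504 to 8624 calls, 4235 to 4618 of them higher in nuclear RNA and 3247 to 4037 in mRNA, and 3227 to 3669 beyond 2 (1957 to 2472 and 1197 to 1276). The share of protein-coding genes of the nuclear genome turned from 3.24 to -1.69 percentage points without mitochondrial genes in the total, and the other shares kept their direction. JTE-607 in place of imatinib gave 7954 calls against 6474.

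Deviations of same-numbered libraries from their group means had Pearson r over 9050 genes of -0.19, 0.0045 and 0.08 for numbers 1, 2 and 3. Over all combinations of numbers r ran from -0.31 to 0.27. Numbers follow the column names, and the study's list of library sizes has mRNA CTRL 1 and 2 the other way round. With these 2 exchanged the values are 0.24, -0.052 and 0.08. Such values, taken across different library methods with 3 libraries per group, cannot show whether the samples were paired. A fit with the replicate number as a block gave 7842 calls (4134 higher in nuclear RNA and 3708 in mRNA) and 3039 beyond 2. Of 133 named genes called, 3 lost the call under the block, 29 with library totals, 17 under upper-quartile scaling and 3 under the DESeq2 Wald test, and 0 changed sign under any alternative run. Low counts limit the small RNAs and the pseudogenes: 569 tested genes had at most 3 counts over the mRNA libraries and 492 over the nuclear ones.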
